A study of Mus musculus with 48 samples.

Results

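The lysosome is the acidic organelle in which cells break down proteins, sugar chains and lipids, and the vacuolar proton pump (V-ATPase) is the enzyme that acidifies it. Hydrolases are made on the endoplasmic reticulum and sorted to the lysosome, whereas the pump has a V0 sector embedded in the membrane, through which protons pass, and a V1 sector on the cytosolic side, which hydrolyses ATP. The transcription factor Tfeb raises many genes of both groups through the CLEAR element, whose core is the palindrome CACGTG. In astrocytes lysosomes degrade endocytosed and autophagic material, and acidified compartments also take part in regulated release.

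The genes described here are 48 of the 47643 genes counted in the series. They comprise 25 lysosomal genes from a fixed list (7 proteases, 6 glycosidases, 4 genes of lipid breakdown, 6 membrane proteins, and Grn and Tfeb) and the 23 protein-coding genes whose symbol starts with Atp6v. Of these 23, 22 encode subunits of the pump, 9 in V0 and 13 in V1, and Atp6v1fnb is a neighbour of Atp6v1f that only shares the start of its symbol. Matching was by symbol to the Ensembl identifiers of the files, and all 48 were found.

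The series measured RNA bound to astrocyte ribosomes in the mouse dorsal hippocampus by translating ribosome affinity purification. All animals carried the transgene Aldh1l1:L10a-eGFP, in which the astrocyte promoter of Aldh1l1 drives a ribosomal protein fused to a fluorescent protein, and an antibody to GFP was used for the pulldown. RNA of whole astrocytes is called Astro below, and PAP stands for perisynaptic astrocytic processes, thin branches that touch synapses. Both came from the same 3 animals, C1, C2 and C3, with no treatment named and no age given in the labels. Every animal and compartment was sequenced as 8 technical replicates, 48 files in all, which were summed to 3 Astro and 3 PAP libraries.

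The Astro libraries held 18707844 to 20293538 counts and the PAP libraries 1829962 to 2980984. Levels are given in CPM, the counts of a gene per 1000000 counts of its library. On this scale 3 counts, the level taken as the floor, were worth between 0.148 and 0.160 CPM in an Astro library, and between 1.01 and 1.64 CPM in a PAP library. Across all genes the biological coefficient of variation was 0.335 among Astro libraries and 1.61 among PAP libraries. Of 13 astrocyte markers 5 were lower in PAP (Aldh1l1, Slc1a3, Gjb6, Aldoc and Sox9) in the edgeR fit of group alone, which called 15.4% of all 14618 tested genes lower, and 0 of the 13 passed with the animal as a block (lowest adjusted p = 0.121). All 13 had a negative log2 fold change of PAP over Astro. Their median was -1.55 in the fit of group alone, against -0.53 over all tested genes, and -1.81 against -1.63 with the block. The summed level of the 13 was 24244 to 32801 CPM in Astro and 3794 to 14294 CPM in PAP. The 6 plasma and B cell markers summed to 15.7 to 30.3 CPM in Astro and 1481 to 3145 CPM in PAP. The 13 microglial markers summed to 66.0, 54.1 and 31.2 CPM in Astro and 68.0, 32.3 and 96.7 CPM in PAP. Of the 13, 6 had 0 counts in all PAP libraries (Cx3cr1, P2ry12, Tmem119, Aif1, Itgam and Fcgr3), and 6 had a PAP mean above their Astro mean (C1qa, C1qb, C1qc, Trem2, Tyrobp and Ly86). The part of these other cells in the results below was not tested. Fewer cells or processes and less RNA in each of them cannot be told apart in such bulk libraries. All levels but the floor also carry the TMM factors, and values are given for animals C1, C2 and C3 in turn.

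Promoter sequences are shown first, because the element bound by Tfeb is a feature that the choice of genes did not use. RefSeq promoters on GRCm38.p6, from 250 bases before to 50 after a transcription start, were found for 23 of the 25 lysosomal genes and 17 of the 23 pump genes. The letters CACGTG, which read the same on both strands, were present in at least 1 promoter of 8 lysosomal genes (34.8%) and of 4 pump genes (23.5%), against 2187 of all 27025 genes of the table (8.09%). The longer palindrome TCACGTGA, which contains the shorter one, was present for 3 lysosomal genes and 3 pump genes, against 1.13% of all genes. The stretches below end at the base before the start, run 5′ to 3′ on the gene's strand, and have CACGTG in capitals. Lamp1 is shown for its 4 copies, Mcoln1, Ctsd, Glb1, Atp6v0b and Atp6v1a as further holders, and Lamp2 and Atp6v1d as genes without it.
Lamp1, chr8:13159081-13159160, plus strand: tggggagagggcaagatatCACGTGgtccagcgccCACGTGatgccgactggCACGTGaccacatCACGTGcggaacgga
Mcoln1, chr8:3500439-3500518, plus strand: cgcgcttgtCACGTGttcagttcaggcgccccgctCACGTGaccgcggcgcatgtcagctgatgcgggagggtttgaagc
Ctsd, chr7:142387828-142387937, minus strand: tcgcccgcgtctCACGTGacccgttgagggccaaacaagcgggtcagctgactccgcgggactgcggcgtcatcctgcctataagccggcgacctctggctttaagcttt
Glb1, chr9:114400998-114401077, plus strand: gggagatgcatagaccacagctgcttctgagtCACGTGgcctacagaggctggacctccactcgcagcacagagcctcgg
Atp6v0b, chr4:117887330-117887409, minus strand: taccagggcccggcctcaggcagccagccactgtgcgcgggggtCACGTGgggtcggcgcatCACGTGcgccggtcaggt
Atp6v1a, chr16:44139260-44139399, minus strand: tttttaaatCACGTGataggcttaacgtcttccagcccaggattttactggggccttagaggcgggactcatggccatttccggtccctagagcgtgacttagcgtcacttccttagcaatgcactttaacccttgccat
Lamp2, chrX:38456461-38456540, minus strand: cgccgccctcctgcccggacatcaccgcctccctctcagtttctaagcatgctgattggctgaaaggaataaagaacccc
Atp6v1d, chr12:78861639-78861718, minus strand: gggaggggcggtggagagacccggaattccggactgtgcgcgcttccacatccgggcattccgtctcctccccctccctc

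In Lamp1 the 4 copies begin 61, 45, 28 and 15 bases before the start, so they fill a short stretch next to it. In Mcoln1, the lysosomal calcium channel, the copies begin 71 and 45 bases before the start. Ctsa, Ctsl, Lgmn, Gaa, Atp6v0d1 and Atp6v0e are the other holders, for Ctsa and Lgmn at the second of 2 listed starts. The fold changes of holders and of other genes overlapped. Among lysosomal genes the median log2 fold change of PAP over Astro was -1.28 for the 8 holders and -1.02 for the 15 tested genes without the letters. Among tested pump genes it was -0.90 for 4 holders and -1.43 for 7 without. Genes called lower in PAP, as given below, were 0 of the 8 lysosomal holders and 2 of the 15 without, and 2 of the 4 pump holders (Atp6v0d1 and Atp6v0e) and 3 of the 7 without. A match describes letters in this window and not a bound site.

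All 25 lysosomal genes were above the floor in every Astro library. In whole astrocytes Laptm4a, Lamp1, Ctsd, Psap, Cd63 and Ctsb stood highest relative to exonic length. That length merges the exons of all annotated transcripts of a gene, so the order depends on the annotation too. Per kilobase of exonic length, the mean Astro level was 398 ± 145 CPM per kilobase for Laptm4a, a small lysosomal membrane protein, and 359 ± 127 for Lamp1, the main glycoprotein of the lysosomal membrane (SD, n = 3). Ctsd, the aspartic protease cathepsin D, followed at 228 ± 137, Psap, the precursor of the saposins that help sphingolipid hydrolases, at 181 ± 92.5, Cd63, a tetraspanin of late endosomes, at 159 ± 71.8 and Ctsb, the cysteine protease cathepsin B, at 114 ± 48.3 CPM per kilobase. The difference between neighbours in this order was under the larger of their 2 SD. The other membrane proteins stood lower, with Lamp2 in place 14, Scarb2 in place 18 and Mcoln1 in place 22 of 25. The lowest was Man2b1, a lysosomal alpha-mannosidase, at 1.80 CPM per kilobase. In PAP Laptm4a (153 ± 125) and Lamp1 (124 ± 57.1) again stood first and second, and Ctsz, the carboxypeptidase cathepsin Z, moved up from the seventh to the third place at 114 ± 63.3 CPM per kilobase.

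**Figure D1:**
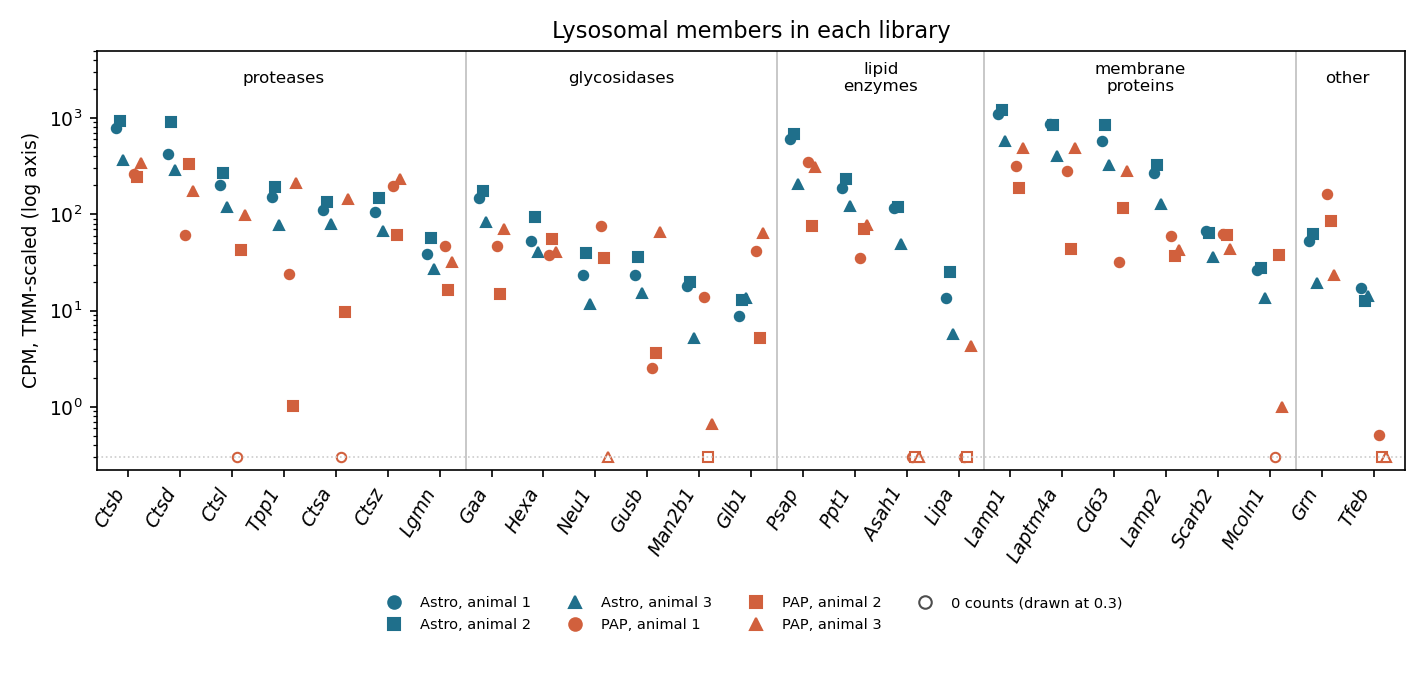
Level of each of the 25 lysosomal genes in each library, in TMM-scaled CPM on a log axis, grouped by role; blue marks are Astro, orange marks PAP, the shape gives the animal, and open marks drawn at 0.3 stand for 0 counts. Animal C3 is the lowest Astro mark for 23 of 25 genes, PAP marks scatter more widely than Astro marks for most genes, and Asah1 has 0 counts in all 3 PAP libraries.

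Across the 25 lysosomal genes, 3 were lower in PAP and 0 were higher at an adjusted p under 0.05 in the edgeR quasi-likelihood fit of group alone. Lower calls made up 15.4% of all tested genes and higher calls 5.92%, so the lysosomal count of 3 in 25 was near the background. An unadjusted p under 0.05 was reached by 7 of the 25 (28.0%, against 30.9% of all tested genes), and DESeq2 gave an adjusted p under 0.05 for 8, all lower (32.0%, against 24.2% of all genes with an adjusted p). The median log2 fold change of the 25 was -1.28, with 21 negative and 4 positive values. It was -0.53 over all tested genes and -1.55 over the 13 astrocyte markers. This distance from all genes rested on the fit: the medians were -1.80 against -1.63 with the animal as a block and -1.60 against -1.62 with voom. Without the PAP library of C1, C2 or C3 they were -1.27 against -0.88, -1.08 against -0.86 and -1.85 against -0.95. With the animal as a block, 0 of the 25 passed, against 0.91% of all tested genes in either direction, and 6 had an unadjusted p under 0.05 (24.0%, against 23.3% of all). Leaving out any single Astro library also left 0 lower calls, as it did for the pump and the further lysosomal genes below. Leaving out a PAP library gave 4, 4 and 7 for C1, C2 and C3. The share of all tested genes called in these fits is not given here, so these counts have no background beside them.

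Asah1, the acid ceramidase that splits ceramide in the lysosome (ENSMUSG00000031591, chr8:41340197-41374773, minus strand, GRCm38), measured 116, 118 and 48.7 CPM in Astro and 0 in every PAP library. Like Tfeb, Asah1 passed the filter on low counts through Astro alone and could be called in no other direction. Summed over libraries, 5166 counts of Asah1 were found in Astro and 0 in PAP. Taken against a floor of 3 counts per library, here scaled by the TMM factors like the levels, its PAP level was at least 70.0-fold lower (edgeR adjusted p = 0.0208; 0.180 with the animal as a block).

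Lamp2, the second main lysosomal membrane glycoprotein and the receptor of chaperone-mediated autophagy (ENSMUSG00000016534, chrX:38401357-38456454, minus strand), measured 266, 328 and 127 CPM in Astro and 59.4, 36.9 and 42.8 CPM in PAP. The groups did not overlap, and the PAP libraries were closer to one another than for most members. Its log2 fold change was -2.37 ± 0.49 (SE; edgeR adjusted p = 0.0208; 0.206 with the animal as a block).

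Tfeb itself (ENSMUSG00000023990, chr17:47737030-47792419, plus strand) measured 17.2, 12.5 and 14.0 CPM in Astro and had 1, 0 and 0 counts in PAP. Pooled, 813 Astro counts stood against 1 PAP count, a ratio of Astro to PAP of 102 with a 95% exact interval of 18.2 to 4023 that covers counting error only (edgeR adjusted p = 0.0241; 0.206 with the block). Tfeb was one of only 2 lysosomal genes, with Glb1, that were not lowest in Astro animal C3.

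The remaining membrane proteins and major hydrolases were mostly below their Astro level without passing the threshold. Lamp1 measured 1100.3, 1207 and 574 CPM in Astro and 314, 188 and 492 CPM in PAP, and the groups did not overlap (log2 fold change -1.54 ± 0.46 SE, edgeR adjusted p = 0.0605). For Ctsb the values were 785, 924 and 362 CPM in Astro and 264, 247 and 343 CPM in PAP (log2 fold change -1.28 ± 0.40 SE, edgeR adjusted p = 0.0705). Cd63 gave 578, 855 and 327 CPM in Astro and 32.0, 117 and 283 CPM in PAP (edgeR adjusted p = 0.140). In these 3 genes the highest PAP library lay under the Astro library of animal C3.

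Laptm4a, Psap and Ctsd overlapped between the groups. Laptm4a measured 864, 845 and 408 CPM in Astro and 283, 43.1 and 486 CPM in PAP. Psap measured 609, 676 and 206 CPM in Astro and 352, 75.4 and 307 CPM in PAP. Ctsd measured 424, 901 and 286 CPM in Astro and 60.4, 335 and 174 CPM in PAP. Their log2 fold changes ran from -1.02 to -1.50, with an edgeR adjusted p of 0.219 or more, and the PAP library that was lowest was C2 for Laptm4a and Psap and C1 for Ctsd. Genes on the opposite strand share part of the exonic length of several members, among them Fdft1 with Ctsb (12.8%) and Pltp with Ctsa (10.5%), and without a stated strand setting their reads cannot be told apart there.

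A few members had their mean above Astro, none past the threshold with all libraries. Ctsz measured 105, 147 and 66.7 CPM in Astro and 198, 61.0 and 234 CPM in PAP, higher in animals C1 and C3 and lower in C2 (log2 fold change 0.63 ± 0.60 SE, edgeR adjusted p = 0.578). Grn, the precursor of the lysosomal granulins, was the only 1 of the 25 that was higher in PAP in each of the 3 animals (4.00%, against 12.6% of all tested genes), a feature noted after its values were seen, while 13 of the 25 were lower in each animal (52.0%, against 40.0% of all). It measured 53.3, 62.4 and 19.4 CPM in Astro and 162, 85.1 and 23.3 CPM in PAP (log2 fold change 1.00 ± 0.84 SE, edgeR adjusted p = 0.517). The beta-galactosidase gene Glb1 (1.66 ± 1.04) and the sialidase gene Neu1 (0.57 ± 1.69) also had positive log2 fold changes, with wide SE. Without the PAP library of C2, Glb1 was called higher (log2 fold change 2.11, edgeR adjusted p = 0.0469), the only higher call of a member among the fits tried.

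By role, every one of the 4 lipid genes and the 6 membrane protein genes had a negative log2 fold change, with medians of -2.44 and -1.46. Among the 7 proteases 6 were negative (median -1.06), and among the 6 glycosidases 4 were negative (median -0.28), while 60.9% of all tested genes were negative. With the animal as a block the medians were -3.58 for the lipid genes, -2.06 for the membrane proteins, -1.64 for the proteases and -1.33 for the glycosidases, against -1.63 over all tested genes. The calls were 1 lipid gene, 1 membrane protein and Tfeb, with 0 proteases and 0 glycosidases, and differences between the roles were not tested. In 10 of the 25 genes every PAP library lay below every Astro library (40.0%), against 35.1% of all tested genes, and in 0 did every PAP library lie above, against 10.9% of all.

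**Figure D2:**
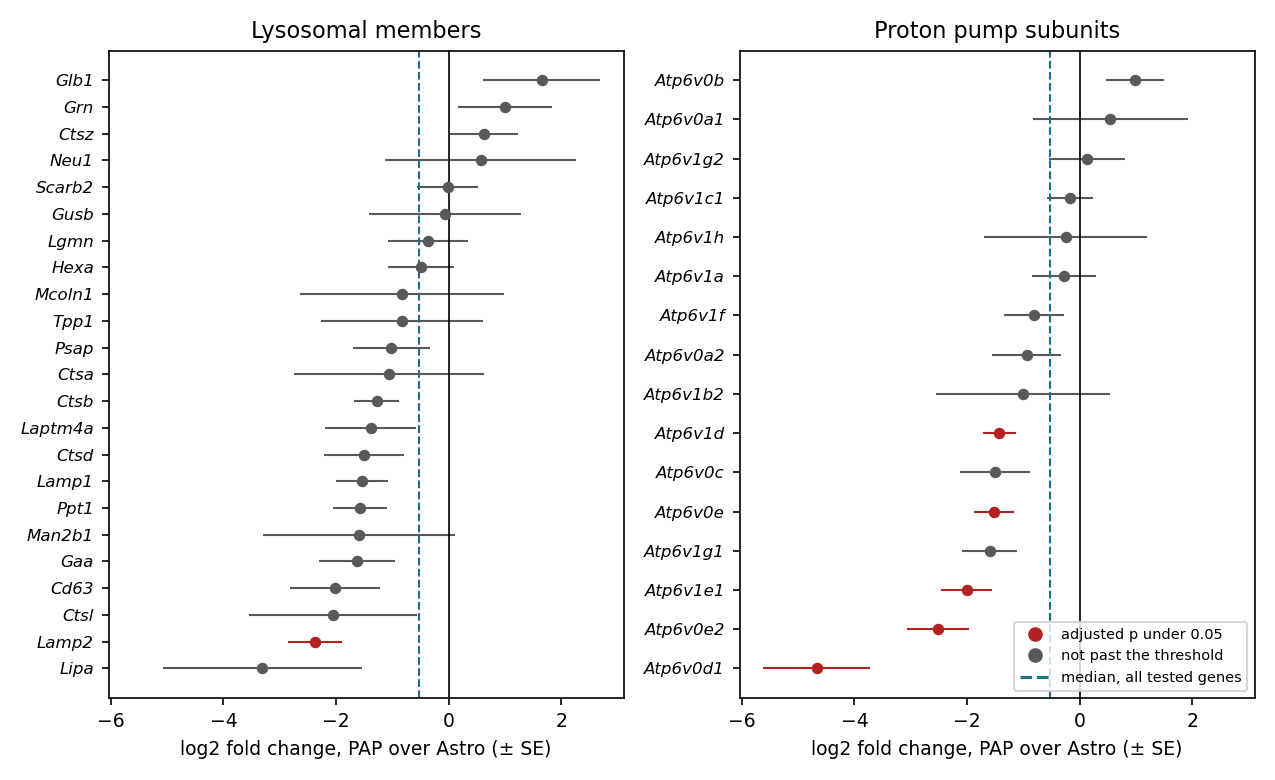
Log2 fold change of PAP over Astro with its SE for 23 lysosomal genes (left) and the 16 tested pump subunits (right), from the fit of group alone; red points have an adjusted p under 0.05, and the dashed line is the median of all tested genes, -0.53. Asah1 and Tfeb are left out because their fitted values rest on 0 and 1 PAP counts; the pump subunits with red points span -1.43 to -4.67.

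By the median over lysosomal genes, PAP libraries differed from one another more than Astro libraries, though not for every abundant member. In Astro the highest library was a median of 2.32 times the lowest over the 25 genes, and in PAP 4.25 times over the 16 genes above the floor in all 3 libraries. Of these 16, Ctsb, Lamp2, Hexa and Scarb2 had the wider range in Astro, and the rest in PAP. Over all tested genes above the floor in the libraries compared, the medians were 1.52 times in Astro and 3.24 times in PAP. In 4 lysosomal genes 1 PAP library was at or under 3 counts while another had at least 100 counts (16.0%, against 16.4% of all tested genes). They were Ctsa, Ctsl, Tpp1 and Neu1, named here after their values were seen. Ctsa, the protective protein of the sialidase complex, had 0, 19 and 442 counts in PAP. Ctsl, the cysteine protease cathepsin L, had 0, 83 and 296, and Tpp1, a tripeptidyl peptidase, had 47, 2 and 647. Neu1 had 150, 68 and 0 counts, so its empty library was C3, where the others were highest. Within a PAP library the 8 technical replicates spread as counting noise would have them, with a dispersion index (1 for pure counting noise) of 0.98 to 1.02 over the 24 to 30 members with a mean of at least 10 counts, so these gaps lay between libraries. In Astro the index was 1.52 to 1.75 over 41 members.

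Of the 23 pump genes 16 could be tested. Atp6v1g3 had 0 counts in all libraries, and Atp6v0a4, Atp6v0d2, Atp6v1b1, Atp6v1c2, Atp6v1e2 and Atp6v1fnb were too low for the test, with at most 54 counts in any library. The untested isoforms of the a, d, B, C, E and G subunits are known from kidney, bone, testis or other specialised tissues.

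In whole astrocytes the range between animals was narrower for most V1 and V0 subunits than for the median tested gene. The highest Astro library was a median of 1.29 times the lowest over the 16 genes, compared with 1.52 times over all tested genes and 2.32 times for the lysosomal genes. The widest ranges of the 16 were those of Atp6v0b, at 2.34 times, and Atp6v1g2, at 1.79 times. Per kilobase of exonic length, Atp6v1f stood highest in Astro at 192 ± 20.2 CPM per kilobase, followed by Atp6v1g1 (167 ± 11.1), Atp6v0e2 (119 ± 17.2), Atp6v0d1 (103 ± 6.32) and Atp6v1e1 (95.3 ± 7.37). From the third place down, neighbours differed by less than the larger of their 2 SD or, for the last pair, by about that SD. In PAP the first was Atp6v0b at 134 ± 58.5 CPM per kilobase, then Atp6v1f at 109 ± 77.4 and Atp6v1g1 at 55.0 ± 25.3.

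**Figure D3:**
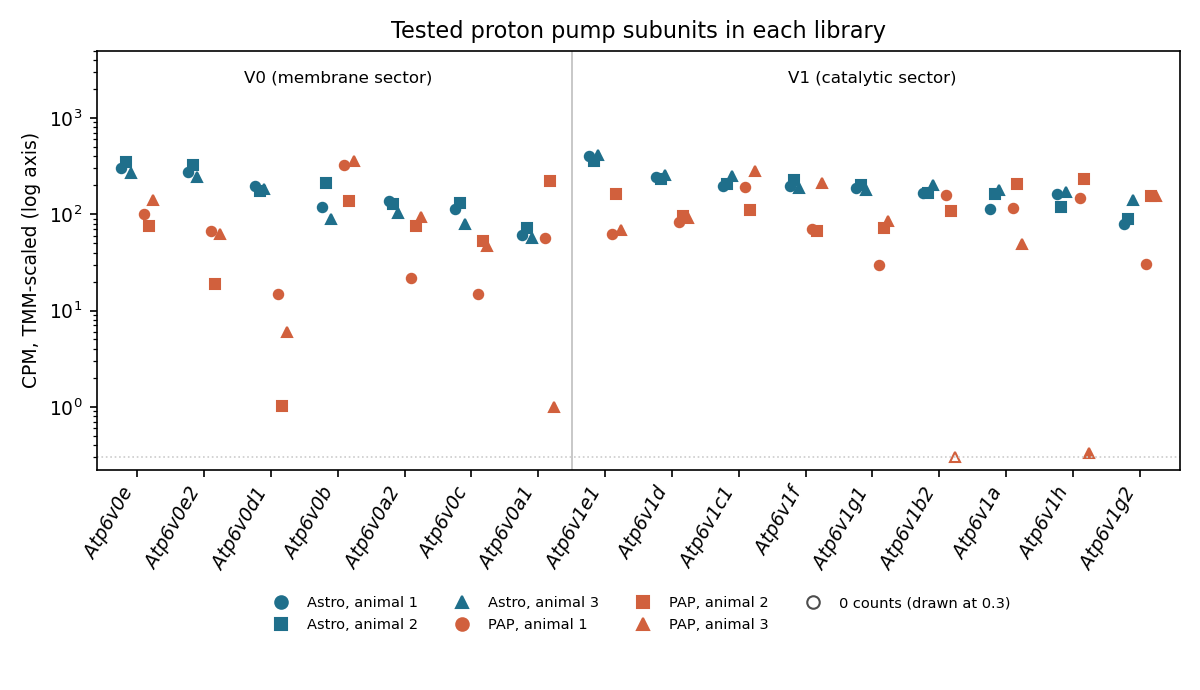
Level of each of the 16 tested pump subunits in each library, in TMM-scaled CPM on a log axis, with the V0 sector left and the V1 sector right; blue marks are Astro, orange marks PAP, the shape gives the animal, and open marks drawn at 0.3 stand for 0 counts. The Atp6v0d1 marks of PAP lie at 1.03 to 14.7 CPM, all far below its Astro marks, and Atp6v1b2, Atp6v1h and Atp6v0a1 are at 0 to 3 counts in PAP of animal C3.

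Of the 16 tested pump genes 5 were lower in PAP (31.3%, against 15.4% of all tested genes) and 0 were higher (5.92% of all). The 5 were Atp6v0d1, Atp6v0e and Atp6v0e2 in V0 and Atp6v1d and Atp6v1e1 in V1. An unadjusted p under 0.05 was reached by 6 (37.5%, against 30.9% of all tested genes), and DESeq2 called 7, all lower (43.8%, against 24.2% of all genes with an adjusted p). The median log2 fold change of the 16 was -0.97, with 13 negative, against -0.53 over all tested genes and -1.55 over the 13 astrocyte markers. With the animal as a block it was above that of all genes (-1.30 against -1.63), as with voom (-1.49 against -1.62), and without the PAP library of C1 the medians were level (-0.88 and -0.88). With the animal as a block 0 passed, while 6 had an unadjusted p under 0.05 (37.5%, against 23.3% of all). Without any single Astro library there were also 0 lower calls, and without a PAP library 6, 5 and 7 for C1, C2 and C3. These counts too are given without the share of all tested genes called in the same fits. Every PAP library lay below every Astro library in 9 of the 16 (56.3%, against 35.1% of all).

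Atp6v0d1, the d subunit that links the rotor of the pump to its membrane ring (ENSMUSG00000013160, chr8:105524465-105566047, minus strand), measured 195, 173 and 185 CPM in Astro and 14.7, 1.03 and 5.92 CPM in PAP. It had the largest fall of the 16 tested subunits: the PAP counts were 29, 2 and 18, its Astro libraries lay close together, and the groups were far apart. The log2 fold change was -4.67 ± 0.95 (SE; edgeR adjusted p = 0.0208; 0.141 with the animal as a block). Its paralogue Atp6v0d2 had 0 counts in Astro and 3, 0 and 0 counts in PAP.

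The other called V0 genes encode the small e subunit in 2 forms. Atp6v0e (ENSMUSG00000015575, chr17:26663231-26699647, plus strand) measured 300.1, 348 and 267 CPM in Astro and 101, 75.9 and 141 CPM in PAP. Its log2 fold change was -1.52 ± 0.35 (SE; edgeR adjusted p = 0.0262; 0.206 with the block). Atp6v0e2 (ENSMUSG00000039347, chr6:48537615-48541801, plus strand) measured 276, 327 and 245 CPM in Astro and 66.5, 19.0 and 62.8 CPM in PAP. Its log2 fold change was -2.51 ± 0.55 (SE; edgeR adjusted p = 0.0226; 0.206 with the block). Neither gene overlapped between the groups, and for both the lowest PAP library was C2.

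In V1, Atp6v1d, the central shaft of the motor (ENSMUSG00000021114, chr12:78840725-78861638, minus strand), measured 245, 232 and 254 CPM in Astro and 83.8, 95.9 and 92.4 CPM in PAP. Both groups were tight, and the PAP level was 2.69-fold lower by the means (log2 fold change -1.43 ± 0.29 SE, edgeR adjusted p = 0.0208; 0.206 with the block). Atp6v1e1, part of the outer stalks (ENSMUSG00000019210, chr6:120794305-120822793, minus strand), measured 405, 357 and 412 CPM in Astro and 62.5, 161 and 69.1 CPM in PAP. The groups did not overlap (log2 fold change -2.01 ± 0.45 SE, edgeR adjusted p = 0.0243; 0.206 with the block).

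Other abundant subunits did not pass the threshold. Atp6v1c1, which clamps V1 to V0, measured 198, 208 and 251 CPM in Astro and 193, 112 and 278 CPM in PAP (log2 fold change -0.17 ± 0.40 SE, edgeR adjusted p = 0.843). Atp6v1f, a small subunit of the rotor, measured 195, 228 and 188 CPM in Astro and 69.6, 67.7 and 211 CPM in PAP (edgeR adjusted p = 0.391). Atp6v0b, a proteolipid of the membrane ring, was the subunit with the highest fold change: it measured 118, 209 and 89.2 CPM in Astro and 327, 137 and 359 CPM in PAP (log2 fold change 0.99 ± 0.51 SE, edgeR adjusted p = 0.266). It was higher in PAP in animals C1 and C3 and lower in C2. The antisense gene Gm12841 covers 11.9% of the exonic length of Atp6v0b, so reads of the 2 genes cannot be told apart there without strand.

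Atp6v1h, the H subunit that regulates V1, measured 162, 118 and 172 CPM in Astro and 147, 235 and 0.33 CPM in PAP. Its PAP counts were 289, 458 and 1, so it was near or above its Astro level in 2 libraries and almost without counts in that of animal C3. The B subunit gene Atp6v1b2, which forms the catalytic head with Atp6v1a, showed the same gap with 312, 210 and 0 counts, and so did Atp6v0a1 with 111, 430 and 3. These 3 of 16 genes (18.8%, against 16.4% of all tested genes) were picked out after their values were seen. In the same library Atp6v1a had 148 counts and Atp6v1c1 846, so the gap did not cover all of V1.

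Summed over its genes, the pump was the steadier of the 2 groups. The 23 pump genes together reached 2953, 3153 and 3004 CPM in Astro and 1495, 1799 and 1649.6 CPM in PAP. In PAP the sum was 50.6%, 57.1% and 54.9% of that in the same animal's Astro library. The 25 lysosomal genes together reached 5989, 7456 and 3087 CPM in Astro and 2111, 1539 and 3238 CPM in PAP, or 35.2%, 20.6% and 104.9% of the same animal's Astro library. The pump sums did not overlap between compartments, and the lysosomal sums overlapped through animal C3, whose Astro library was low and whose PAP library was high.

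The Astro library of animal C3 held less RNA of the 25 lysosomal genes than the other 2 across nearly the whole list. It was the lowest of the 3 Astro libraries for 23 of the 25 lysosomal genes (92.0%), against 35.0% of all tested genes, and the median log2 ratio to the mean of the other 2 libraries was -1.01, against -0.01 over all tested genes. Psap, for example, had 4086 counts there and 11386 and 11569 in the others. The 74 further lysosomal genes described at the end were split: it was the lowest library for 48 of 74 (64.9%, median log2 ratio -0.33). Among these it was the lowest for 21 of 26 hydrolases (80.8%, median -0.70), 9 of 12 transport and membrane genes, 5 of 6 sorting genes, 3 of 3 cathepsin inhibitors, 5 of 12 pump accessory genes and 5 of 15 regulators (median -0.06). For the V1 genes it was the lowest library for 2 of 9 and the highest for 7 of 9, with a median log2 ratio of 0.29. The V0 genes lay between, lowest for 6 of 7 with a median of -0.30. Scaled by library total alone, 23 of the 25 lysosomal genes were still lowest in that library (median -0.86), while of the 16 pump genes 5 were lowest and 8 highest (median 0.09, in place of -0.06 with TMM scaling). Over all tested genes under that scaling, the library was lowest for 25.2% and highest for 46.8% (median 0.13), so the pump lay near all genes.

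**Figure D4:**
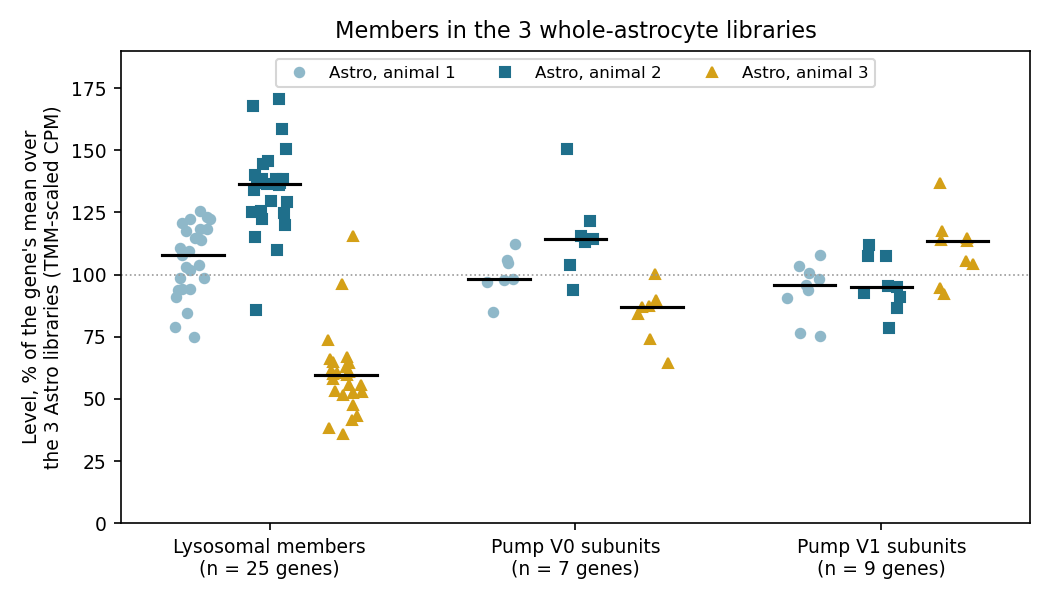
Each member's level in each of the 3 Astro libraries as a percentage of its mean over them (TMM-scaled CPM), for the 25 lysosomal genes, 7 V0 and 9 V1 pump genes; marks are genes, black bars are medians and the dotted line is 100%. Animal C3 (triangles) lies below the other animals for the lysosomal genes and at or above them for most V1 genes.

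Marker genes of other cells also differed between these Astro libraries. The microglial sum was 66.0, 54.1 and 31.2 CPM in C1, C2 and C3, the sum of the 13 astrocyte markers was 32801, 27099 and 24244 CPM, and that of the 11 neuronal markers was 726, 1066 and 1256 CPM. Of the 13 astrocyte markers 8 were lowest in C3 (61.5%, against 35.0% of all tested genes). Their median log2 ratio to the mean of the other libraries was -0.39, against -0.01 over all tested genes. The secreted cathepsin inhibitor Cst3, no member but abundant, measured 15431, 18437 and 7898 CPM. The part of these cells in the animal difference was not tested.

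For 3 subunits a pair of members was detectable, and its balance could be read within a library as the share of the pair's counts, which does not depend on scaling. Intervals are 95% exact binomial and cover counting error only. Atp6v0e2 made up 47.9% (47.0 to 48.9), 48.4% (47.5 to 49.3) and 47.9% (46.9 to 48.9) of the e subunit counts in Astro. In PAP it made up 39.7% (34.4 to 45.2), 20.0% (14.5 to 26.5) and 30.8% (27.1 to 34.6), each below all Astro shares, and the Astro shares lay within 0.49 percentage points of each other.

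Atp6v1g1 and Atp6v1g2 encode the G subunit of the outer stalk, and Atp6v1g2 is known as the form enriched in neurons. Atp6v1g1 measured 186, 203 and 179 CPM in Astro and 30.0, 72.8 and 84.5 CPM in PAP (log2 fold change -1.60 ± 0.48 SE, edgeR adjusted p = 0.0638). Atp6v1g2 measured 79.4, 89.7 and 142 CPM in Astro and 30.5, 156 and 154 CPM in PAP (log2 fold change 0.13 ± 0.68 SE, edgeR adjusted p = 0.931). Its share of the pair was 29.9% (28.6 to 31.2), 30.6% (29.3 to 31.9) and 44.2% (43.0 to 45.5) in Astro. In PAP it was 50.4% (41.1 to 59.7), 68.2% (63.7 to 72.5) and 64.6% (61.0 to 68.1), above every Astro share, though the interval of the PAP library of C1 reached below the Astro share of C3. The neuronal markers summed to 726 to 1256 CPM in Astro and 470.2 to 1501 CPM in PAP, with 1 of 11 lower in PAP (Snap25, edgeR adjusted p = 0.127 with the block) and 1 higher (Syt1, 0.206 with the block), and their part in this share was not tested.

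Atp6v0a1 and Atp6v0a2 encode forms of the a subunit, which carries the proton path. A further form, Tcirg1, is no member by its symbol and is left out of the pair: it had 134, 53 and 85 counts in Astro, 1.54% to 3.49% of the a subunit counts, and 0 in PAP. Atp6v0a1 measured 61.5, 71.8 and 56.9 CPM in Astro and 56.4, 221 and 0.99 CPM in PAP. Atp6v0a2 measured 137, 127 and 103 CPM in Astro and 21.8, 75.9 and 92.7 CPM in PAP, without overlap (edgeR adjusted p = 0.382). The share of Atp6v0a2 was 69.0% (67.5 to 70.5), 63.8% (62.2 to 65.4) and 64.4% (62.7 to 66.0) in Astro, and 27.9% (21.002 to 35.7), 25.6% (22.1 to 29.4) and 98.9% (97.0 to 99.8) in PAP. It thus lay below Astro in 2 PAP libraries and above it in that of C3, where Atp6v0a1 had 3 counts.

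**Figure D5:**
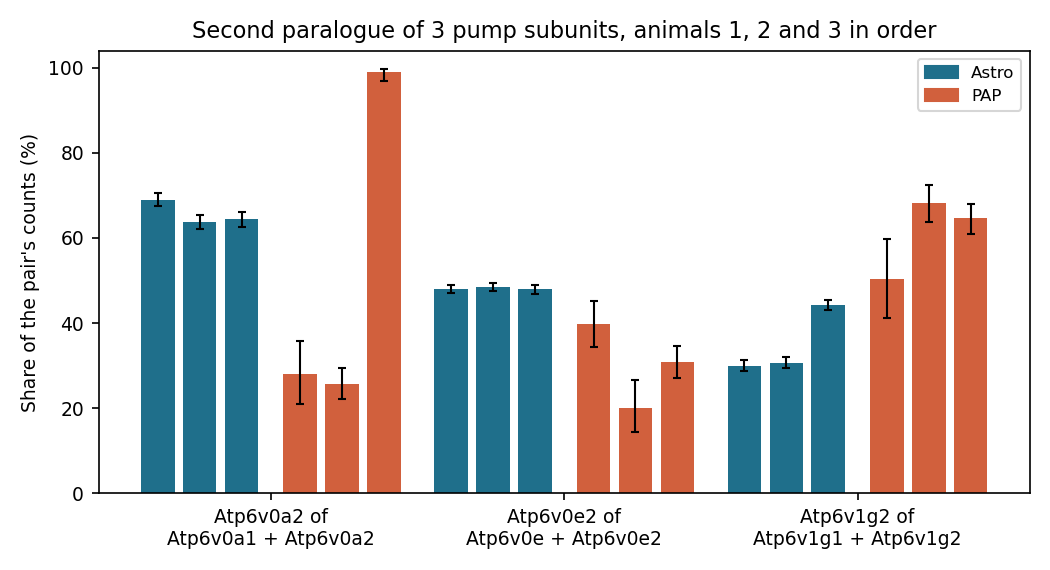
Share of the second paralogue in the counts of each pair of pump subunits, as a percentage, for animals C1, C2 and C3 in order within Astro (blue) and PAP (orange); error bars are 95% exact binomial intervals. The share of Atp6v0e2 is lower in every PAP library than in any Astro library, that of Atp6v1g2 is higher, and that of Atp6v0a2 is split among the PAP libraries.

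Beyond these members, a list of 75 further lysosomal genes (hydrolases, transporters, sorting receptors, regulators, pump accessory genes and cathepsin inhibitors) was fitted with them. Of 74 tested, 13 were lower in PAP (17.6%, against 15.4% of all tested genes) and 0 higher. The median log2 fold change of the 74 was -0.99, against -0.53 over all tested genes. It was -2.53 against -1.63 with the animal as a block, and -2.39 against -1.62 with voom. For 12 of the 13 every PAP library was at or under 3 counts, so they passed the filter through the deeper Astro libraries alone and could be called in no other direction, as for 1952 of the 2250 lower calls over all tested genes. Thinned to the smallest total, 6 of the list were lower. Lower were 5 hydrolases (Galc, Arsa, Manba, Ctsh and Ctso), the chloride antiporter gene Clcn7, the sorting enzyme gene Nagpa, the regulators Mtor, Rraga and Rragb, the a subunit gene Tcirg1, Ncoa7 of the pump accessory list, and the inhibitor gene Cst6. The exception was Ctso, with 232, 287 and 471 counts in PAP. Rraga and Rragb are near-identical in sequence, so their 0 counts in every PAP library may not be separate measurements. With the animal as a block 0 of the 74 passed, and 16 had an unadjusted p under 0.05 (21.6%, against 23.3% of all). Without any single Astro library there were 0 lower calls, and without a PAP library 21, 20 and 20 for C1, C2 and C3. Here again the share of all tested genes called in the same fits is not given. Together with Asah1, the lower genes Galc, Arsa and Manba encode enzymes that degrade sphingolipids or glycans, each with 0 or 1 PAP count in all.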

How the data were processed

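Gene counts, as deposited by the authors and not normalized per the file headers, were available for 48 files. Per the submitters' processing notes, bcl2fastq 2.18.0.12, Trim Galore 0.4.1, STAR 2.5.2b, SAMtools and HTSeq 0.5.3 were used with mm10; strand setting and annotation are not given in the sources used here. Per the labels' protocols, cDNA was amplified by SMART-Seq from low input before Nextera XT library preparation. Symbols and positions came from GENCODE M21 (GRCm38; 47224 of 47643 identifiers matched, 99.1%). Counts of the 8 technical replicates were summed, giving n = 3 per group.

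Counts were tested over all genes with edgeR 4.0.16 in R 4.3.3 (TMM scaling, filterByExpr with a minimum count of 10, quasi-likelihood test of group alone, Benjamini-Hochberg adjustment, threshold 0.05), with scripts tested on simulated data. Alternatives were the animal as a replicate block, DESeq2 1.42.0, limma 3.58.1 voom, other scalings, filters and depths, and leaving out each library. Pairing comes from the animal named in the labels of both compartments, although their deviations from the group means correlated at only 0.0335, 0.0187 and -0.0326 over 14618 genes.

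Values are printed for members past the threshold, for the 8 lysosomal and 8 pump genes with the highest mean CPM, and for paralogous pump pairs with at least 10 counts in 2 libraries. Members and lists were chosen with earlier results of these data known. Counting intervals are exact binomial at 95%; reads carried no molecular identifiers in the labels, so they cover counting error only.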

Additional observations from a re-analysis of the deposited data

How the results depend on the processing

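Over 16 alternatives each, the 8 called members kept a negative log2 fold change, and 11 or 12 of the 16 kept each call. With the replicate block, 0 lysosomal, 0 pump and 0 other lysosomal genes were lower in PAP; it changed no other call of a member. Leaving out a library gave 0 to 7 lysosomal, 0 to 7 pump and 0 to 21 other lysosomal genes lower, and 0 to 1 lysosomal (Glb1, without the PAP library of C2) and 0 to 2 other genes higher. DESeq2 gave 8 lysosomal and 24 other genes lower, and 1 other gene higher. voom gave 2 lysosomal genes and 1 pump gene lower. For fits other than that of group alone, the block and DESeq2, the share of all tested genes called is not given here. Among other lysosomal genes 7 were lower with a mean of at least 100 counts and 6 after thinning to the smallest total, where fewer genes could be tested. The cause of the other changes was not tested. The median log2 fold change of all genes was -0.38 with library size alone, in place of -0.53, and -1.63 with the block.

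Members that changed sign had no call in the fit of group alone. Of these Gusb was called lower without the PAP library of C3 (-3.08, adjusted p = 0.0380). Gusb gave 0.058 with library size alone, 0.076 with the mean filter and 0.15 thinned (-3.08 to 0.42 without 1 library). Neu1 gave -0.85 with the block and -1.24 with voom (-0.56 to 1.11). Scarb2 gave 0.017 with the block, 0.054 with DESeq2, 0.056 with its size factors, 0.15 with library size, 0.19 with the mean filter, 0.29 thinned and 0.027 with technical replicates 5 to 8 (-0.23 to 0.13). Atp6v0a1 gave -0.81 with the block and -1.49 with voom (-1.21 to 1.06). Atp6v1g2 gave -0.14 with the block, -0.034 with no filter and -0.050 with voom (-0.22 to 0.54). Atp6v1c1 gave 0.019 with the mean filter (-0.59 to 0.045), Atp6v1h 0.040 thinned (-1.10 to 0.27), and Atp6v1a -0.93 to 0.042 without 1 library. In PAP depth limits what can be seen of members under the floor of 1.01 to 1.64 CPM.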

Other observations

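Ctss, the protease cathepsin S and no member of the 48, is noted here after its values were seen. It measured 9.62, 11.2 and 3.74 CPM in Astro and 121, 187 and 2.63 CPM in PAP for animals C1, C2 and C3 (edgeR adjusted p = 0.131; DESeq2 adjusted p = 0.00679, the 1 gene of its list that DESeq2 called higher). It was thus far above its Astro level in 2 PAP libraries and near it in the other. The 13 microglial markers summed to 66.0, 54.1 and 31.2 CPM in Astro and 68.0, 32.3 and 96.7 CPM in PAP. Of these markers 6 had 0 counts in all PAP libraries, and the others were spread over the libraries: C1qb gave 25.9, 29.7 and 0 CPM, Ly86 37.1, 0 and 0 CPM, and Trem2 0, 0.51 and 37.2 CPM. The 6 plasma and B cell markers summed to 30.3, 15.7 and 26.1 CPM in Astro and 3145, 1805 and 1481 CPM in PAP. The part of microglial RNA or of plasma and B cell RNA in these levels was not tested.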
